A study of Mus musculus with 4 samples.

Results

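The TBC domain Rab GTPase-activating proteins were described in mouse T cells cultured under Th9 conditions with TLA1 (the Th9+TLA1 group, 2 libraries) and under Th9 conditions alone (the Th9 group, 2 libraries). Both groups share the Th9 conditions, which drive T cells towards secretion of interleukin 9. TLA1 is the labels' spelling; it is taken to be TL1A, the tumour necrosis factor family cytokine in the title of the series. RNA-seq gave 1 expression value per gene in each of the 4 libraries, in CPM, which are reads scaled to the same total in every library. The labels give no strain, age, dose or culture time for either group. They do not say that replicates are independent animals or cultures, so every p-value below reflects library-to-library spread that could be technical. In bulk RNA, fewer cells of a type and less RNA per cell cannot be told apart.

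Members were the protein-coding genes whose symbol begins with Tbc1d and a digit, together with Rabgap1, Rabgap1l, Evi5, Sgsm1, Sgsm2, Sgsm3 and Usp6nl. They came to 37 of the 23480 genes in the files, and 33 of them passed the filter on low counts and were tested. The question was whether Tbc1d4, already seen to be lower with TLA1 in these libraries, was lower alone or with relatives such as Tbc1d1. The members were thus chosen by symbol, with the lower CPM of Tbc1d4 in Th9+TLA1 in view, so its difference is given as a description that no test supports, and the tests of the other members come from the same 4 libraries. Tbc1d4 stood at 38.4 ± 7.72 CPM in Th9+TLA1 against 151 ± 48.1 CPM in Th9 (SD, n = 2 each), and Tbc1d1 stood at 232 ± 32.8 CPM in Th9+TLA1 and 219 ± 1.74 CPM in Th9. None of the other 32 tested members was called in either direction, where 1.14% of all tested genes were. Of these members 4 were lower in Th9+TLA1 without overlap between groups, among them the sparsely read Tbc1d16. Of all tested genes 29.0% were lower without overlap.

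Rab proteins are small GTPases that mark membrane compartments and recruit the machinery that moves vesicles while GTP is bound. A TBC domain speeds up the hydrolysis of that GTP with a paired arginine and glutamine, and so returns the Rab to its inactive state. Tbc1d4, also called AS160, and its closest relative Tbc1d1 are phosphorylated by Akt and by AMP-activated kinase, and in muscle and fat they hold back the movement of glucose transporter vesicles to the cell surface until they are phosphorylated. In T cells glucose is taken up mainly through other transporters, and members such as Tbc1d10c have been studied for their own part in T cell activation.

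The catalytic pair is what members of the family share in sequence, and it is shown here for Tbc1d4, Tbc1d1 and the most abundant members by each scale, Rabgap1l and Tbc1d15. The codons were read from GENCODE M21 transcripts on GRCm38, 5′ to 3′, with the arginine codon in capitals in the first line of each gene and the glutamine codon in capitals in the second.
Tbc1d4 arginine finger: atccttgtggatttggggAGG
Tbc1d4 glutamine finger: tactgtCAG
Tbc1d1 arginine finger: attctcatcgacctcgggCGA
Tbc1d1 glutamine finger: tactgcCAA
Rabgap1l arginine finger: attactcgagatattcatCGT
Rabgap1l glutamine finger: tactgtCAA
Tbc1d15 arginine finger: atcgagaaagatgtcaacAGA
Tbc1d15 glutamine finger: tatgtaCAA

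The arginine of Tbc1d4 was codon 980 and its glutamine codon 1017, and those of Tbc1d1 were codons 941 and 978. Of the 37 coding sequences, 26 held an isoleucine, an aspartate and an arginine at the spacing of the arginine finger followed by a tyrosine and a glutamine at the spacing of the glutamine finger. The arginine and the glutamine lay 34 to 37 codons apart in those 26, and 37 apart in 14 of them, the 4 genes printed above included. The other 11 coding sequences had no such pair, which says only that these residues were not found at this spacing. Among those 11 were Tbc1d23, a bridging protein that captures vesicles at the Golgi, Tbc1d7, a subunit of the TSC complex, and Tbc1d16. The coding sequence of Tbc1d1 had 66.1% identical bases with that of Tbc1d4 over 3560 aligned bases, against 58.8% to 60.04% for Tbc1d9, Tbc1d9b and Tbc1d32, which are of similar length. Neither Tbc1d4 nor Tbc1d1 shared any 50-base stretch of its transcripts with another gene, and neither overlapped another gene's exons, so their reads could not be split with a near-identical copy.

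The promoter windows of the pair are shown as a description of sequence. Whether these windows bear on the lower level of Tbc1d4 with TLA1 was not tested. They run from 250 bases before to 50 after a transcription start in RefSeq for GRCm38.p6, at chr14:101609142-101609441 on the minus strand for Tbc1d4 and at chr5:64160010-64160309 on the plus strand for the upstream start of Tbc1d1. Capitals mark CpG dinucleotides.
Tbc1d4 promoter: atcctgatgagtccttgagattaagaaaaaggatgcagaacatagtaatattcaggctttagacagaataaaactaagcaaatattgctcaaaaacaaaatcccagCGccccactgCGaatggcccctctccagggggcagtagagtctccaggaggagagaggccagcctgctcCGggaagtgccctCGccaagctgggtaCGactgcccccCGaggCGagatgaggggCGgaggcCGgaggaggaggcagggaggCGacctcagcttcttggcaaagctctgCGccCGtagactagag
Tbc1d1 promoter: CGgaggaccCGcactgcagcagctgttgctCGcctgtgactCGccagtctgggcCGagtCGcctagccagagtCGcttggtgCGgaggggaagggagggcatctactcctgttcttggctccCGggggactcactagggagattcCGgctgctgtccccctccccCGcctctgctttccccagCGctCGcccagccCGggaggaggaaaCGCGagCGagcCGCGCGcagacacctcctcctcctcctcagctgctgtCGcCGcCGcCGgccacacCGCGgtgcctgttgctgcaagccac

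The window of Tbc1d4 held 12 CpG dinucleotides at a GC content of 55.7%, and that of the upstream Tbc1d1 start held 26 at 69.3%. A second Tbc1d1 start had 33 CpG dinucleotides at a GC content of 74.0%. The median over 32851 windows of all genes was 7 CpG dinucleotides at 52.7% GC, and that over the 40 windows found for 30 members was 24.5 at 63.3% GC. None of 3 motifs searched on both strands was found in the windows of Tbc1d4 or Tbc1d1. The AP-1 motif TGANTCA was in 5% of the family's windows and 7.81% of all windows, and the forkhead motif GTAAACA in 2.5% of the family's and 3.65% of all. The E-box CACGTG was in 22.5% of the family's windows, 9 of 40, and in 7.15% of all. This motif holds a CpG, and the family's windows held more CpG by median than all windows. Whether the E-box shares differ between windows of like CpG content was not tested. These matches describe letters in the windows and do not show binding.

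**Figure D1:**
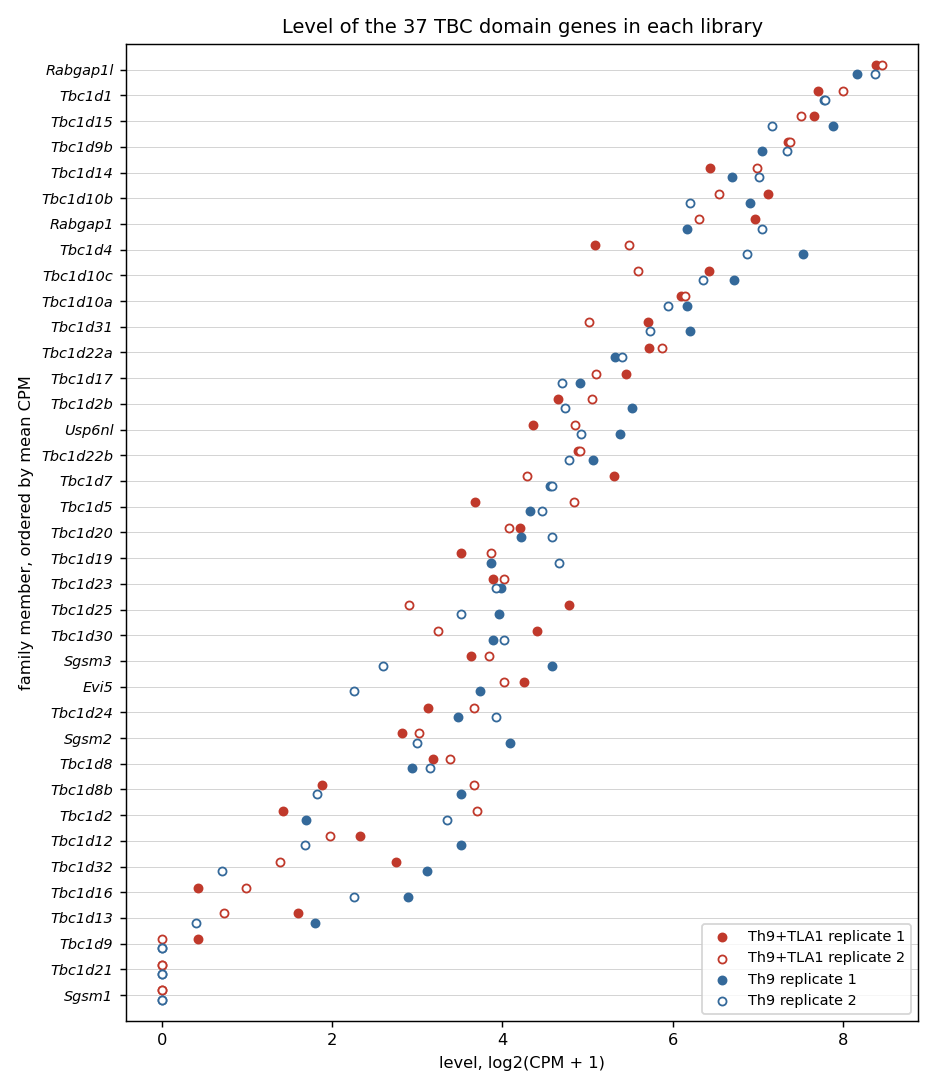
Deposited CPM of the family's members on a log axis, 1 point per library, Th9+TLA1 and Th9 in separate colours. The points of Tbc1d4 lie apart by group, with 32.9 and 43.8 CPM in Th9+TLA1 and 185 and 117 CPM in Th9, while the points of Tbc1d1 overlap between groups.

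The libraries held 2979482 and 3081187 reads in genes for Th9+TLA1 and 4041633 and 3167270 for Th9, and 3 reads, the upper limit that a count of 0 allows, corresponded to 0.742 to 1.01 CPM. The T cell label fitted its markers, since all 8 genes of the T cell list were detected in every library, with a summed level of 3835 and 3678 CPM in Th9+TLA1 and 2818 and 3273 CPM in Th9. The list's median log2 fold change was 0.43. An unadjusted limma p under 0.05 was reached by 5 of its 8 genes, against 16.7% of all tested genes. Of these genes 1 was called higher, where 0.891% of all tested genes were. It was Cd5, a surface receptor that tunes T cell receptor signalling, with 257 and 210 CPM in Th9+TLA1, against 109 and 116 CPM in Th9 (log2 fold change 1.13 ± 0.20 SE, adjusted p = 0.0204). Because the cDNA was amplified from little RNA, reads do not each stand for a molecule, and the limits set by 3 reads cover counting error only.

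Most of the family was expressed in these T cells. Of the 37 members, 35 and 34 had at least 1 read in the Th9+TLA1 libraries, against 34 in each Th9 library. By mean CPM over all 4 libraries, Rabgap1l was highest, followed by Tbc1d1, Tbc1d15, Tbc1d9b and Tbc1d14. Rabgap1l, which acts on an endosomal Rab in human cells, had 335 and 353 CPM in Th9+TLA1, against 286 and 333 CPM in Th9. Its groups did not overlap, but the gap was small and the gene was not called (log2 fold change 0.25 ± 0.18 SE, adjusted p = 0.538). Levels per kilobase of exon compare genes only roughly. Exon length was counted over all annotated transcripts, 23232 bases for Rabgap1l and 4261 for Tbc1d15. It can exceed the length of the transcript in use. On that scale Tbc1d15 was highest at 44.8 CPM per kb averaged over the 4 libraries. It was followed by Tbc1d1 at 30.5, Tbc1d10a at 24.6, Tbc1d9b at 24.2 and Tbc1d10b at 22.5 CPM per kb. Averaged over the same libraries, Tbc1d4 stood at 12.3 CPM per kb.

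Tbc1d4 lies on the minus strand of chromosome 14, from 101442360 to 101609281 in GRCm38 (Entrez 210789). It had 32.9 and 43.8 CPM in Th9+TLA1, from 98 and 135 reads, against 185 and 117 CPM in Th9, from 747 and 370 reads. Both Th9+TLA1 libraries were low and both Th9 libraries high, with no overlap, and the Th9 libraries differed more from each other than the Th9+TLA1 libraries did. The log2 fold change was -1.83 ± 0.27 (SE), which is 3.57-fold lower. Per kilobase of exon the level was 4.996 CPM per kb in Th9+TLA1 and 19.6 CPM per kb in Th9. Within the family, Tbc1d4 ranked 14th and 11th by CPM in the Th9+TLA1 libraries and 4th and 7th in the Th9 libraries. Its share of the family's summed CPM was 1.76% and 2.41% in Th9+TLA1, against 9.21% and 6.36% in Th9.

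Tbc1d1 lies on the plus strand of chromosome 5, from 64156305 to 64351486 (Entrez 57915), and is the member closest to Tbc1d4 in function and sequence. It had 209 and 255 CPM in Th9+TLA1, against 218 and 221 CPM in Th9. The Th9 values lay between the Th9+TLA1 values, so the groups overlapped. The log2 fold change was 0.16 ± 0.18 (SE, adjusted p = 0.718), and its 95% interval of -0.24 to 0.57 spanned folds of 0.847 to 1.48. A fall of the size seen for Tbc1d4 lay outside that interval. The ratio of Tbc1d1 to Tbc1d4 by CPM was 6.35 and 5.82 in the Th9+TLA1 libraries, against 1.18 and 1.89 in the Th9 libraries. In every library Tbc1d1 was thus the more abundant of the pair, by a wider margin with TLA1.

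**Figure D2:**
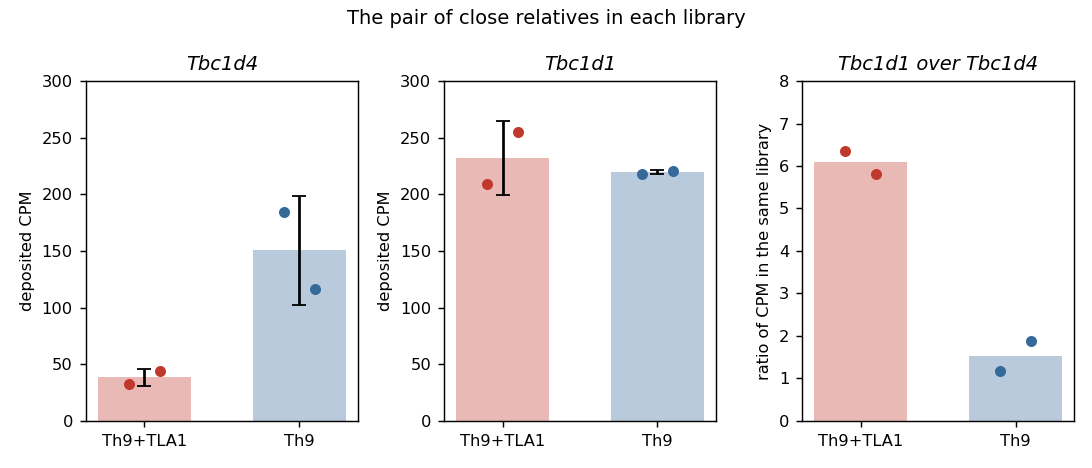
Deposited CPM of Tbc1d4 and Tbc1d1 in each library, with points for libraries and bars for group means with their SD, Th9+TLA1 left of Th9. A further panel shows the ratio of Tbc1d1 to Tbc1d4 in each library, with bars for group means. Tbc1d4 averaged 38.4 CPM in Th9+TLA1 and 151 CPM in Th9, and Tbc1d1 averaged 232 CPM in Th9+TLA1 and 219 CPM in Th9.

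Of the 33 tested members, 1 was called at an adjusted p under 0.05 over all 10324 tested genes (limma with Benjamini-Hochberg adjustment). It was Tbc1d4, whose values the choice of the family had used, so it is counted for completeness and nothing is read from the count. With Th9 replicate 1 left out, 0 members were called, and the log2 fold change of Tbc1d4 was -1.55. Of all tested genes 1.14% were called in either direction, 0.252% lower and 0.891% higher. Adjusted p ran from 0.270 to 0.977 over the other 32 members, and Tbc1d16 and Evi5 were the only others with an unadjusted p under 0.05, a level that 16.7% of all tested genes passed. The median log2 fold change of the 33 members was 0.11, beside -0.013 over all tested genes, with 19 members positive and 14 negative. Without scaling beyond the deposited CPM the split was 17 and 16. The median absolute log2 fold change was 0.232 for the members and 0.330 for all tested genes. Of the members, 30 lay between the 5th and 95th percentiles of all tested genes, at -1.01 and 0.95, and Tbc1d4, Tbc1d16 and Evi5 lay outside. Groups did not overlap for 11 members, or 33.3%, compared with 48.1% of all tested genes. Of these members 5 were lower in Th9+TLA1, where 29.0% of all tested genes were, and 6 were higher, where 19.1% were.

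**Figure D3:**
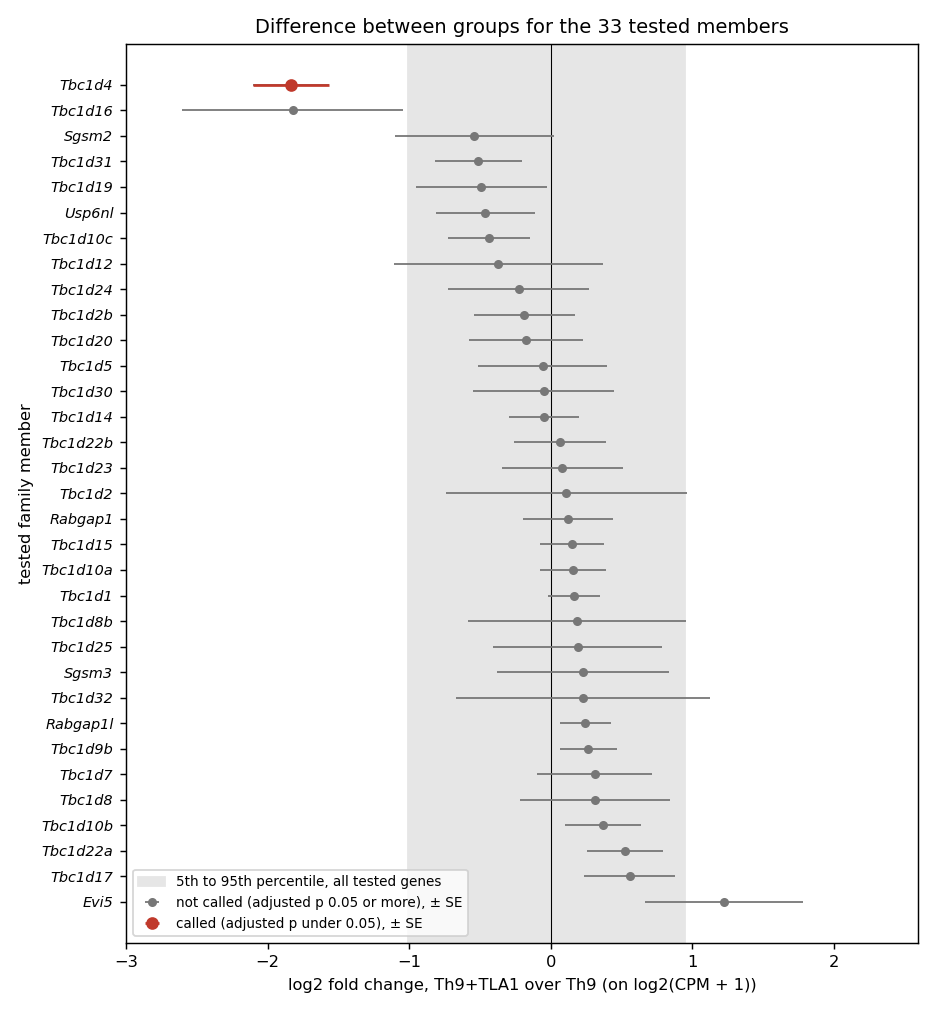
Log2 fold change of Th9+TLA1 over Th9 with its SE for the 33 tested members, on log2(CPM + 1), over a grey band from the 5th to the 95th percentile of all tested genes. Tbc1d4, in red, lies at -1.83, Tbc1d16 lies at -1.82 with a wider error, and Evi5 is highest at 1.23.

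The family's summed level differed little between groups apart from Tbc1d4. The sum over all 37 members was 1867 and 1818 CPM in Th9+TLA1, against 2007 and 1837 CPM in Th9. With Tbc1d4 taken out, the sum was 1834 and 1774 CPM in Th9+TLA1, against 1822 and 1720 CPM in Th9. The Th9+TLA1 libraries lay on both sides of the Th9 library with the larger sum once Tbc1d4 was left out.

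Among members with lower values in Th9+TLA1, Tbc1d16 came nearest to Tbc1d4 in fitted fold change. Tbc1d16, a GAP for the recycling Rab4 in human cells, had 0.336 and 0.974 CPM in Th9+TLA1, against 6.43 and 3.79 CPM in Th9. These levels rested on 1 and 3 reads in Th9+TLA1 and 26 and 12 reads in Th9. The groups did not overlap, but both Th9+TLA1 libraries were at or under the limit of 3 reads, and the gene passed the filter on low counts through the Th9 libraries alone. The log2 fold change was -1.82 ± 0.78 (SE, adjusted p = 0.270), and the ratio of summed reads, each over its library totals, was 0.125, with an exact 95% counting interval of 0.0325 to 0.348 that leaves out the spread between libraries. Across 19 alternative settings its log2 fold change ran from -2.86 to -0.80 and it was called in 0 of them.

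Tbc1d31, a centrosome protein in human cells, had 51.4 and 31.5 CPM in Th9+TLA1, against 72.7 and 52.1 CPM in Th9. The groups came within 1 CPM of each other without overlapping (log2 fold change -0.51 ± 0.31 SE, adjusted p = 0.437). Tbc1d10c, also called carabin, which binds calcineurin and dampens T cell activation, had 85.2 and 47.4 CPM in Th9+TLA1, against 104 and 81.1 CPM in Th9. Its groups overlapped (log2 fold change -0.43 ± 0.29 SE, adjusted p = 0.486). An annotated gene on the same strand covers 35.5% of the exon bases of Tbc1d10c, so its reads may be split between them. Usp6nl, a regulator of Rab5 and of receptor uptake in human cells, had 19.5 and 27.9 CPM in Th9+TLA1, against 40.8 and 29.4 CPM in Th9, groups that did not overlap (log2 fold change -0.46 ± 0.35 SE, adjusted p = 0.551). The groups of Tbc1d20 almost touched. Tbc1d20, a GAP for Rab1 whose loss causes cataract and male sterility in mice, had 17.5 and 15.9 CPM in Th9+TLA1, against 17.6 and 23.0 CPM in Th9 (log2 fold change -0.17 ± 0.40 SE, adjusted p = 0.879).

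Evi5 had the highest fold change of the family. Evi5, named for a site of viral integration in mouse T cell lymphoma, had 18.1 and 15.3 CPM in Th9+TLA1, against 12.4 and 3.79 CPM in Th9. The groups did not overlap, yet the Th9 libraries lay far apart (log2 fold change 1.23 ± 0.56 SE, adjusted p = 0.297). Leaving out Th9 replicate 2 brought its log2 fold change to 0.53, and leaving out Th9 replicate 1 brought it to 1.92. Tbc1d22a had 51.7 and 57.8 CPM in Th9+TLA1, against 39.1 and 41.4 CPM in Th9, a small difference without overlap and with little spread inside either group (log2 fold change 0.52 ± 0.27 SE, adjusted p = 0.361). Its paralogue Tbc1d22b had 28.5 and 29.2 CPM in Th9+TLA1, against 32.4 and 26.5 CPM in Th9, and its groups overlapped.

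Tbc1d17, a GAP for Rab8 in human cells, had 42.6 and 33.4 CPM in Th9+TLA1, against 29.2 and 24.9 CPM in Th9. The groups did not overlap (log2 fold change 0.56 ± 0.32 SE, adjusted p = 0.414). Exons of Il4i1 and Akt1s1 on the other strand cover 36.1% of its exon bases, and the library kit does not mark strand, so reads of these genes cannot be told apart there. Tbc1d8 also had higher values without overlap, at 8.06 and 9.41 CPM in Th9+TLA1, against 6.68 and 7.89 CPM in Th9 (adjusted p = 0.826). These came from 24 and 29 reads in Th9+TLA1 and 27 and 25 reads in Th9. Exons of Rpl31 on the other strand cover 8.02% of the exon bases of Tbc1d8, where reads of both genes cannot be told apart.

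None of the other abundant members was called. Tbc1d15, a GAP for Rab7 that works at mitochondria and lysosomes in human cells, had 202 and 181 CPM in Th9+TLA1, against 236 and 143 CPM in Th9. The Th9 libraries enclosed the Th9+TLA1 libraries (log2 fold change 0.15 ± 0.23 SE, adjusted p = 0.798), and without Th9 replicate 2 the log2 fold change turned to -0.16. Tbc1d9b had 163 and 166 CPM in Th9+TLA1, against 131 and 162 CPM in Th9, with a narrow gap between groups (log2 fold change 0.27 ± 0.20 SE, adjusted p = 0.554).

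Tbc1d10a and Tbc1d10b are GAPs for Rab27 and Rab35 in human cells, both of which serve secretion and recycling. Tbc1d10a had 67.5 and 69.8 CPM in Th9+TLA1, against 70.8 and 60.6 CPM in Th9 (log2 fold change 0.16 ± 0.23 SE, adjusted p = 0.796). Tbc1d10b had 139 and 92.2 CPM in Th9+TLA1, against 119 and 72.6 CPM in Th9 (log2 fold change 0.37 ± 0.27 SE, adjusted p = 0.536). The groups overlapped for both genes. Tbc1d14, a regulator of autophagy and of Rab11 vesicles in human cells, had 85.6 and 127 CPM in Th9+TLA1, against 102 and 128 CPM in Th9, also overlapping.

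How firmly a lack of change can be stated differed among members. The 95% interval of the fold change lay within 2-fold in both directions for 10 members: Rabgap1, Rabgap1l, Tbc1d1, Tbc1d10a, Tbc1d10b, Tbc1d14, Tbc1d15, Tbc1d22b, Tbc1d2b and Tbc1d9b. For the other 23 the interval reached past 2-fold in at least one direction, so that a change of that size could not be set aside. The median SE of the log2 fold change over the tested members was 0.402. Replicates of the same group differed by a median of 1.33-fold in Th9+TLA1 and 1.40-fold in Th9, and 12 members differed by more than 2-fold between replicates of a group. Among these was Tbc1d2, a GAP for Rab7 in human cells, with 1.68 and 12.01 CPM in Th9+TLA1, against 2.23 and 9.16 CPM in Th9.

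The 4 members not tested were at or near the limit of detection. Sgsm1 and Tbc1d21, a testis gene, had 0 reads in all libraries, which allows up to 0.742 to 1.01 CPM depending on the library. Tbc1d9 had 1 read, in Th9+TLA1 replicate 1, and 0 in the other libraries, unlike its abundant paralogue Tbc1d9b. Tbc1d13, a GAP for Rab35 in human and mouse cells, had 6 and 2 reads in Th9+TLA1, against 10 and 1 reads in Th9.

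Genes around the family were read from 10 lists of Rabs, Rab exchange factors, Rab recycling genes, other Rab GAPs, and the kinases and cargo of the Tbc1d4 pathway. Of their 121 genes, 102 were tested and 0 were called in either direction by limma, 0 by edgeR and 2 by DESeq2 (Rab13, which passed the filter on low counts through the Th9+TLA1 libraries alone, and Slc2a3). Over all 10324 tested genes limma called 1.14%, edgeR 110 genes and DESeq2 273 genes, so counts this low were common and say little about the lists. An unadjusted limma p under 0.05 was reached by 16 of the 102, or 15.7%, compared with 16.7% of all tested genes, and their median log2 fold change was 0.11.

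Of the 6 Rabs reported as substrates of Tbc1d4 or Tbc1d1, the most abundant was Rab8b, with 546 and 714 CPM in Th9+TLA1, against 764 and 883 CPM in Th9 (log2 fold change -0.30 ± 0.19 SE, adjusted p = 0.460). Rab13, which regulates junctions and vesicle traffic, had 11.7 and 4.87 CPM in Th9+TLA1, against 0 reads in both Th9 libraries. Its mean CPM in Th9+TLA1 was 9.83 times a floor of 3 reads per Th9 library, or 5.76 times without Th9+TLA1 replicate 1. These ratios take the Th9+TLA1 level as exact. The 95% interval of the limma fit spanned folds of 2.62 to 30.2, and Rab13 was not called by limma. Rab13 passed the filter on low counts through the Th9+TLA1 libraries alone. Its fitted Th9 level was set by the 1 CPM added before the log, so the interval is only a description. Among 13 tested endocytic and recycling Rabs, Rab9 had 98.3 and 94.8 CPM in Th9+TLA1, against 62.4 and 74.5 CPM in Th9 (adjusted p = 0.233), and Rab11a, the most abundant, had an adjusted p of 0.410. Among 17 secretory and Golgi Rabs, Rab1a, which acts between endoplasmic reticulum and Golgi, had 350.1 and 299 CPM in Th9+TLA1, against 213 and 251 CPM in Th9 (adjusted p = 0.166), and Rab6a, a Golgi Rab, had 329 and 331 CPM in Th9+TLA1, against 257 and 297 CPM in Th9 (adjusted p = 0.367).

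Of 25 tested exchange factors, which load Rabs with GTP and so oppose the GAPs, Dennd3 had 31.9 and 25.6 CPM in Th9+TLA1, against 1.48 and 11.4 CPM in Th9. Its groups did not overlap, and its Th9 libraries were far apart (log2 fold change 2.49 ± 0.67 SE, adjusted p = 0.113). The most abundant exchange factor was Dennd5a, with 301 and 398 CPM in Th9+TLA1, against 246 and 344 CPM in Th9, groups that overlapped. Gdi2, which extracts inactive Rabs from membranes, had 1428 and 1326 CPM in Th9+TLA1, against 1148 and 1477 CPM in Th9. Chml, an escort for Rab prenylation, had 1.01 and 3.25 CPM in Th9+TLA1, against 5.44 and 8.84 CPM in Th9 (adjusted p = 0.359). Its Th9+TLA1 levels rested on 3 and 10 reads, with replicate 1 under the minimum count, so the same limit holds for Chml. Rab3gap1 and Rab3gap2 form the Rab GAP that lacks a TBC domain. Rab3gap1 had 62.4 and 104 CPM in Th9+TLA1, against 113 and 121 CPM in Th9 (adjusted p = 0.424), and Rab3gap2 had 131 and 142 CPM in Th9+TLA1, against 125 and 129 CPM in Th9 (adjusted p = 0.682). Evi5l, a TBC domain gene outside the symbol rule, had 20.1 and 12.7 CPM in Th9+TLA1, against 7.92 and 8.84 CPM in Th9 (adjusted p = 0.359).

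Among 19 tested kinases and binding proteins upstream of Tbc1d4, the most abundant was Ywhaz, a 14-3-3 protein of the kind that binds phosphorylated Tbc1d4, with 831 and 925 CPM in Th9+TLA1, against 983 and 1056 CPM in Th9 (adjusted p = 0.777). Sgk1, a kinase related to Akt, had 247 and 357 CPM in Th9+TLA1, against 443 and 454 CPM in Th9 (log2 fold change -0.50 ± 0.20 SE, adjusted p = 0.239). Slc2a4, the glucose transporter GLUT4 whose vesicles Tbc1d4 retains in muscle and fat, had 0 reads in both Th9+TLA1 libraries, against 0 and 1 reads in Th9. Slc2a3, the GLUT3 transporter, was the most abundant transporter gene, with 3566 and 3342 CPM in Th9+TLA1, against 1743 and 2584 CPM in Th9 (log2 fold change 0.79 ± 0.23 SE, adjusted p = 0.129). Lrp1, found with GLUT4 in fat cell vesicles, had 17.1 and 13.6 CPM in Th9+TLA1, against 4.70 and 2.84 CPM in Th9 (adjusted p = 0.129). With 19 and 9 reads in Th9, its Th9 replicate 2 lay under the filter's minimum count of 10, so the change of Lrp1 is only a description. Rheb, the GTPase on which the TSC complex with Tbc1d7 acts, had 119 and 126 CPM in Th9+TLA1, against 212 and 167 CPM in Th9 (adjusted p = 0.212), while Tbc1d7 itself had 38.6 and 18.5 CPM in Th9+TLA1, against 22.5 and 23.0 CPM in Th9 (adjusted p = 0.758).

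**Figure D4:**
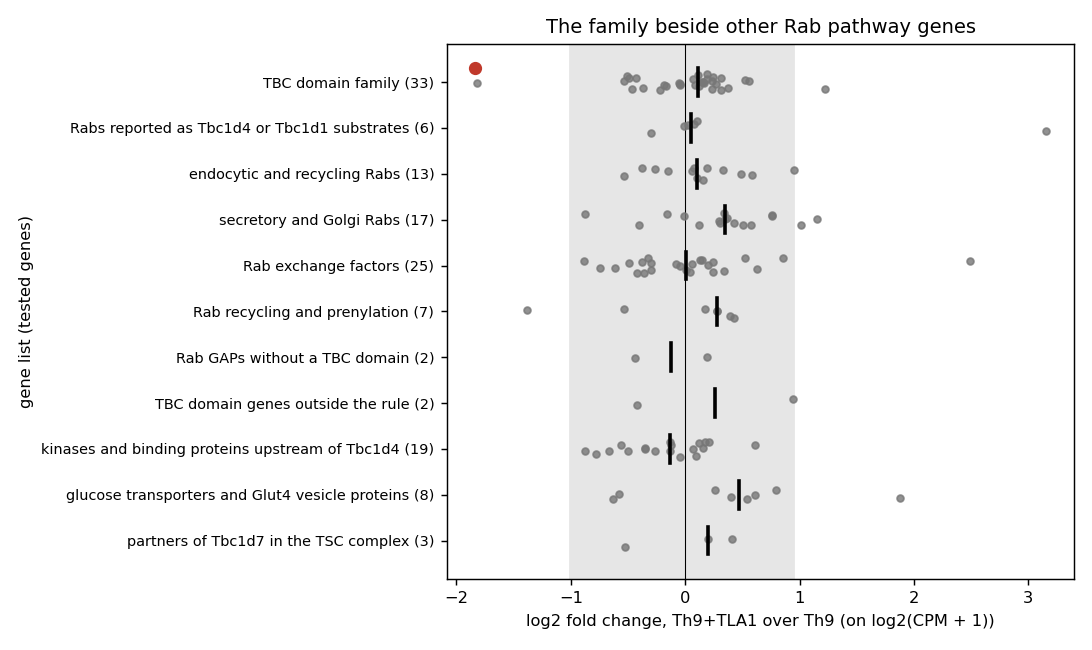
Log2 fold change of Th9+TLA1 over Th9 for the tested members of the family and of 10 lists of related genes, 1 point per gene, with a bar at each list's median and a grey band from the 5th to the 95th percentile of all tested genes. The red point is Tbc1d4. Rab13 lies at 3.15, fitted against 0 reads in Th9.

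Markers of regulatory T cells had fold changes in both directions. Of 10 genes on that list, 9 were tested, 1 was called lower and 0 higher, with a median log2 fold change of 0.072. Of all tested genes 0.252% were called lower and 0.891% higher. An unadjusted limma p under 0.05 was reached by 3 of the 9, against 16.7% of all tested genes. The called gene was Foxp3, the defining factor of the type, with 19.1 and 23.0 CPM in Th9+TLA1, against 123 and 80.5 CPM in Th9 (log2 fold change -2.10). Nrp1 had 18.5 and 39.6 CPM in Th9+TLA1, against 82.6 and 63.8 CPM in Th9 (adjusted p = 0.113), while Tnfrsf18 had 677 and 621 CPM in Th9+TLA1, against 504 and 506 CPM in Th9 (log2 fold change 0.45, adjusted p = 0.214). The list's summed level was 5130 and 4854 CPM in Th9+TLA1, against 4497 and 4434 CPM in Th9, most of it from Il2ra, and none of its genes was at 0 throughout. The part of such cells in the level of Tbc1d4 was not tested. Markers of other cell types were low in both groups. The summed B cell list had 28.9 and 29.2 CPM in Th9+TLA1, against 10.4 and 12.9 CPM in Th9, with Ms4a1 and Pax5 at 0. Of its 5 genes 2 were tested, with a median log2 fold change of 0.91. An unadjusted limma p under 0.05 was reached by 1 of them. The myeloid list had 11.1 and 6.17 CPM in Th9+TLA1, against 3.46 and 1.89 CPM in Th9, with Lyz2, Csf1r and Cd14 at 0. Of its 8 genes 1 was tested, with a log2 fold change of 1.68 and an unadjusted limma p under 0.05. Neither list had a called gene. CD8 markers summed to 7.92 to 13.3 CPM, NK cell markers to at most 3.22 CPM and fibroblast markers to at most 1.01 CPM in any library.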

How the data were processed

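Mouse T cells gave 2 Th9+TLA1 and 2 Th9 RNA-seq libraries. Per the labels' protocols, cDNA came from a low-input SMARTer kit, which does not mark strand, and was read on an Ion Torrent instrument. Per the submitters' processing notes, mm10, edgeR and HTSeq 0.5.4 were used. The authors deposited CPM, from which whole reads were recovered for 100% of non-zero values (tolerance 0.01) (their aligner and annotation: not given in the sources used here). Recovered reads came to 2979482 and 3081187 in Th9+TLA1 and 4041633 and 3167270 in Th9.

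Symbols came from RefSeq for GRCm38.p6, the assembly of mm10, and matched 23383 of 23480 identifiers. Exon lengths, overlaps and coding sequences came from GENCODE M21. Genes with low counts were removed with filterByExpr on recovered reads (minimum count 10). CPM were divided by TMM factors, 0.964 to 1.06, and limma (lmFit, eBayes with a mean trend) was run on log2(CPM + 1) with group alone; fold changes on that scale understate changes of low genes. Calls needed a Benjamini-Hochberg adjusted p under 0.05 over 10324 genes. Printed CPM are the deposited ones. As an alternative, edgeR's quasi-likelihood test on the recovered reads called 110 genes, against 118 by limma. Other alternatives were DESeq2, limma voom, other scalings, filters and pseudocounts, a replicate block, removal of a length trend and leaving out each library. The script was tested on simulated data.

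Members and lists were chosen with earlier results of these data known. Genes given in full were Tbc1d4, Tbc1d1, called members, the 6 others with the largest moderated t and the 5 highest per kilobase; of each list, called genes, or the most abundant gene and the one with the smallest p. Rabgap1l, Tbc1d14, Usp6nl, Tbc1d20, Tbc1d8, Tbc1d22b, Tbc1d2, Tbc1d7, Nrp1, Tnfrsf18 and Slc2a4 were added after their values were seen. Fits ran in R 4.3.3 (DESeq2 1.42.0, edgeR 4.0.16 and limma 3.58.1), and tables and figures in Python 3.11.15 (matplotlib 3.10.9, numpy 2.4.6 and pandas 2.3.3).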

Additional observations from a re-analysis of the deposited data

How the results depend on the processing

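With only 2 libraries per group, leaving out 1 decided several calls. The count of all genes called, 118, was 73 without scaling beyond CPM, 33 with no filter, 273 with DESeq2 and 225 with the replicate block, and 31 to 312 with a library left out. With the filter set again on the 3 libraries, an alternative chosen after seeing the data, it was 19 to 155 (42 without Th9 replicate 1). In the 12 settings that left out no library, the family had 1 called member, Tbc1d4. The choice of the family had used its values, so nothing is read from that count. In the fits with a library left out, the lone library of a group is assumed to vary like the other group. The family count was 0 without Th9 replicate 1 and, with the filter set again, also without Th9 replicate 2. The log2 fold change of Tbc1d4, as a description, was -2.11 to -1.55 over 20 alternatives. Tbc1d1 ran from 0.027 to 0.301 and was called in 0 of 20. The family's median, 0.11, was 0.032 without further scaling, where the median of all genes was -0.10, 0.094 and 0.066 at pseudocounts of 0.25 and 5 CPM, 0.071 with edgeR, 0.075 with DESeq2, 0.134 with the length trend removed and 0.027 to 0.095 with a library left out; with the filter set again it was 0.089 and 0.064 without Th9 replicates 1 and 2, and 0.063 and 0.027 without Th9+TLA1 replicates 1 and 2. Calls on the pathway lists, 0, were 2 with DESeq2, 1 with the replicate block and 0 to 2 with a library left out. Tbc1d15 turned to -0.16 without Th9 replicate 2, under both filters, and was 0.47 without Th9 replicate 1. Same-numbered libraries did not deviate together (correlation -0.011), so the block rests on a shared number only. Over the 12 genes given in full, 234 of 239 values under alternatives kept direction and side of the threshold. Of these genes only Tbc1d4 was called in the main fit, so for the others keeping the same side says little. The values that did not keep both were among those of Tbc1d4 with a Th9 library left out and those of Tbc1d15 without Th9 replicate 2. Depth limits Tbc1d16, with 1 and 3 reads in Th9+TLA1, and the 4 untested members. It also limits other tested members with few reads. Among these were Tbc1d32, with 17 and 5 reads in Th9+TLA1 and 31 and 2 in Th9, and Tbc1d12, with 12 and 9 reads in Th9+TLA1 and 42 and 7 in Th9.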
